A study of Mus musculus with 45 samples.

Results

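Islets of Langerhans from NZO/HlLtJ mice were compared with islets from CAST/EiJ mice, both kept on the 44% fat diet, across all genes. The 15 libraries were those whose title holds this diet and 1 of these strains, out of 45 libraries in the series. They comprised 7 NZO libraries, 4 from females and 3 from males, and 8 CAST libraries, 4 from females and 4 from males. NZO/HlLtJ (New Zealand Obese) and CAST/EiJ are inbred strains, and every mouse was labelled wild type with no other treatment. All 15 libraries shared the high fat, high sugar diet, labelled 44% fat+fiber. This diet was begun at 6 weeks of age, and tissue was taken at 16 weeks. The third strain was C57BL/6J, and mice of each strain on a control diet labelled 10% fat+fiber completed the series. Polyadenylated RNA was sequenced as 150 bp read pairs. Whether each library is a separate mouse is not in the labels, so the p-values here measure the spread between libraries, which may be partly technical.

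Islets hold beta cells, which secrete insulin, alpha cells, which secrete glucagon, and smaller numbers of delta, gamma and epsilon cells, together with vessels, fibroblasts and resident macrophages. A mature mouse beta cell takes up glucose through GLUT2, phosphorylates it and burns it in mitochondria, and the ATP made closes KATP channels, opens calcium channels and releases insulin granules. NZO mice become obese, and their males are prone to diabetes on diets rich in fat and carbohydrate, with loss of GLUT2 and of key transcription factors known in their beta cells. CAST/EiJ is a wild-derived strain of another subspecies that stays lean and diverges widely in sequence from laboratory strains.

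Levels are given as TMM-scaled counts per 1000000 counts of a library (CPM). Library totals ranged from 71452639 to 90772245 counts in NZO and from 60703339 to 92642563 counts in CAST. The insulin genes Ins1 and Ins2 took 3.92% to 13.8% of a library's counts, so each library had the defining transcripts of islets. Digestive enzyme genes of acinar cells, the surrounding exocrine tissue, took 4.08% to 21.3% of the counts in NZO and 0.134% to 21.6% in CAST. That list held the amylase Amy2b, higher in CAST, but not Amy2a3 or Amy2a4, higher in NZO, so amylase counts may enter the strains' shares unequally. In 4 libraries, transcripts that mark another strain were above the trace level of the rest: CAST female replicates 1, 2 and 4 and NZO male replicate 3. The 3 CAST females held a set of 6 C57BL/6J markers at a median of 7.67%, 3.66% and 3.78% of their level in C57BL/6J. The other CAST libraries held them at 0.394% at most. The same females held a set of 8 NZO markers at 4.56%, 1.89% and 1.84% of their level in NZO, against at most 0.169%. NZO male replicate 3 held a set of 4 C57BL/6J markers at 1.49%, against at most 0.516% in the other NZO libraries. It also held a set of 11 CAST markers at 0.471%, against 0% in those libraries. The 8 of these confined to CAST were at 0.155%. Xist was at 15.4 CPM in this male library, at 0.351 and 0.344 CPM in the other NZO males and at 531 to 860 CPM in NZO females. None of the C57BL/6J or NZO markers was confined to that strain, and which strain the transcripts came from was not tested. Each comparison below was repeated without these 4 libraries, which leaves 1 CAST female. The sources used here do not say whether reads were assigned with strain variants taken into account, so a difference in RNA level and a difference in how well reads of a strain map cannot be told apart for single genes.

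**Figure D1:**
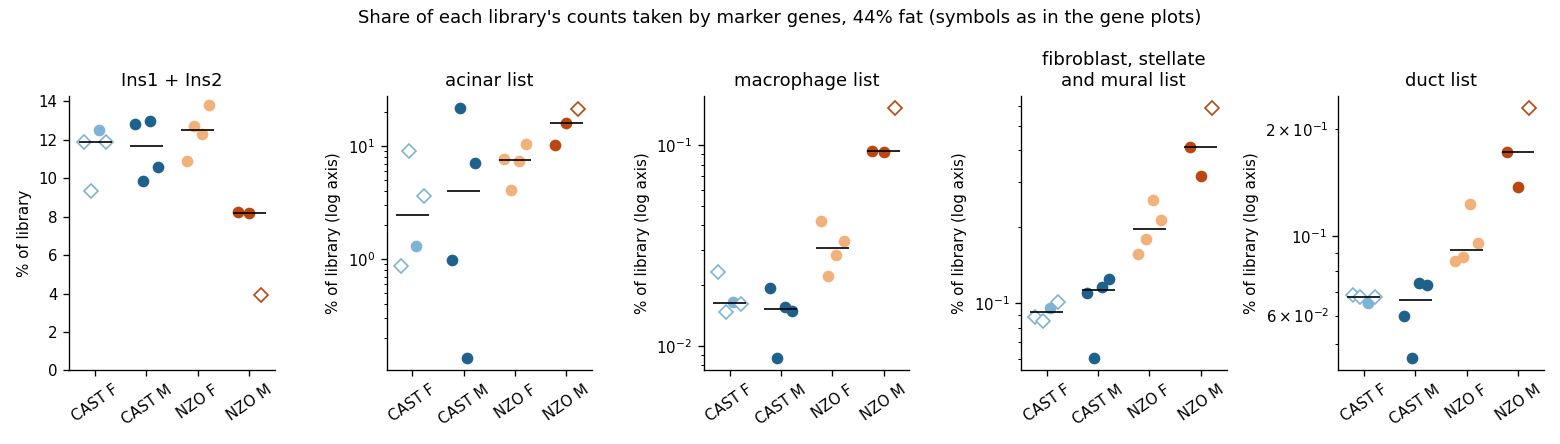
Share of each library's counts (%) taken by Ins1 and Ins2 together and by the marker lists of acinar cells, macrophages, fibroblasts with stellate and mural cells, and duct cells. Each point is a library, open diamonds are the 4 libraries with transcripts of another strain, and lines are group medians; the 3 NZO males have the lowest insulin shares (3.92% to 8.26%) and the highest macrophage shares (0.0924% to 0.153%).

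Most expressed genes differed between the strains. Of 19088 genes tested, 13088 (68.6%) passed an adjusted p of 0.05 in edgeR's quasi-likelihood test with sex as a blocking factor: 6706 (35.1%) were higher in NZO and 6382 (33.4%) lower. By 2-fold or more, 3546 (18.6%) were higher and 2395 (12.5%) lower. The strains did not overlap, library by library, for 3011 genes higher in NZO (15.8%) and 3347 lower (17.5%). Without the 4 libraries 6106 genes were higher (30.6%) and 5616 lower (28.1%). With library totals alone as the scale, the median of all genes moved to -0.17 on the log2 scale from 0.01, and the split became 5038 higher (26.4%) and 7388 lower (38.7%). These shares are the background for every list that follows: a list called at about these shares resembles all genes. In bulk RNA, fewer cells of a type and less RNA per cell cannot be told apart.

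**Figure D2:**
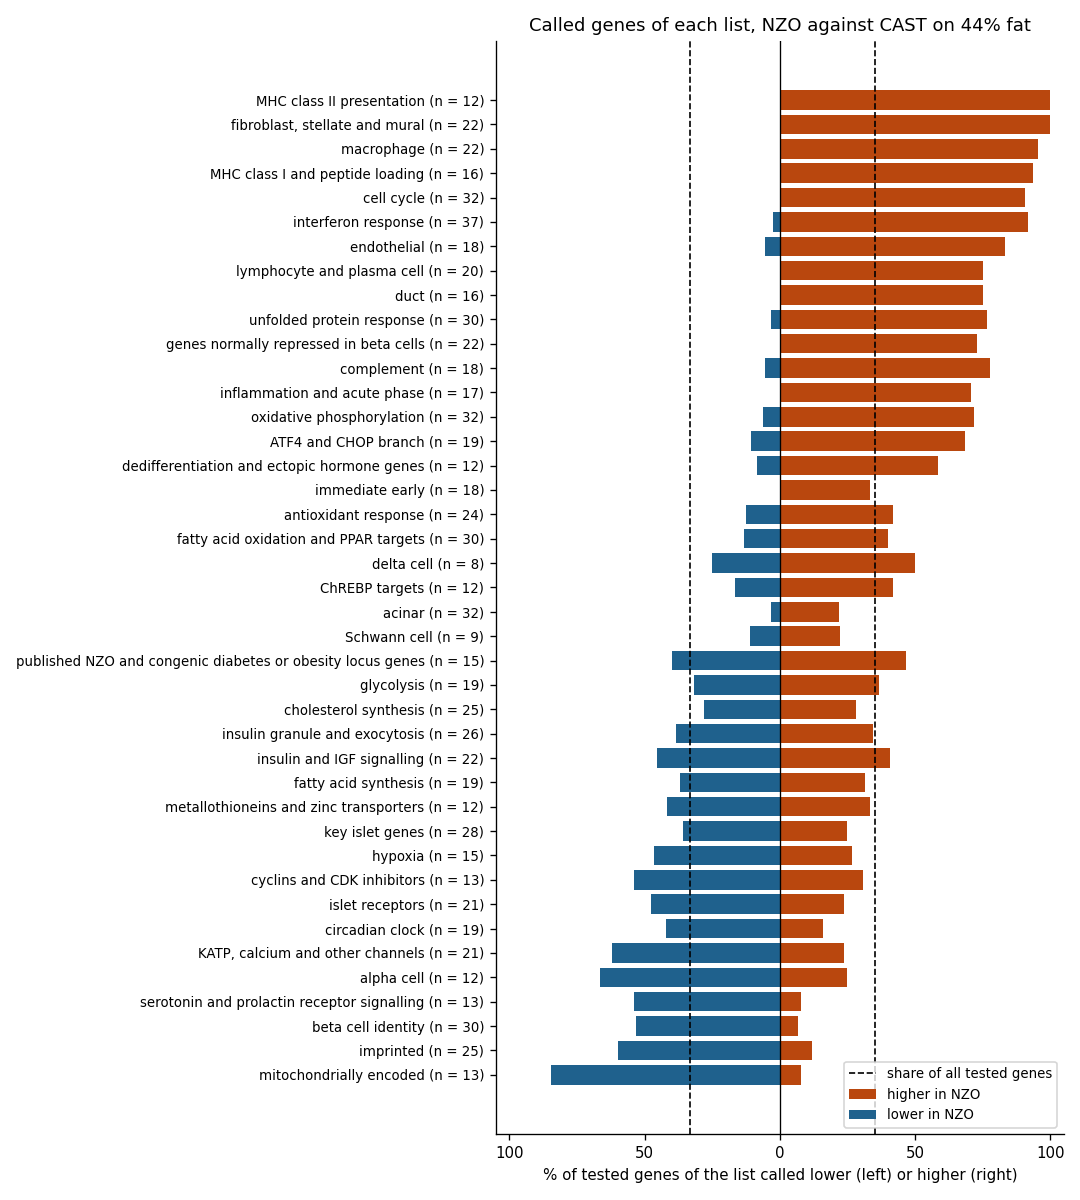
Percent of the tested genes of each list that were called higher (right) or lower (left) in NZO than in CAST on 44% fat at an adjusted p of 0.05, for lists with 8 or more tested genes. Dashed lines mark the shares over all tested genes, 35.1% higher and 33.4% lower; the lists of MHC class II and of fibroblast, stellate and mural genes are all called higher and the mitochondrially encoded genes are the list most often called lower.

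Genes of the mature beta cell were called lower in NZO more often than higher, and neither insulin gene was called over both sexes. Of 30 beta cell identity genes, 16 were lower, 2 higher and 12 did not pass, with a median log2 difference (NZO minus CAST) of -0.75 against 0.01 over all genes; both counts were the same without the 4 libraries. Slc2a2, which encodes the glucose transporter GLUT2 (chromosome 3, 28697903 to 28731359, GRCm38), was at 98.1 to 530 CPM (median 269) in the NZO libraries and 1017 to 1438 CPM (median 1224) in the CAST libraries. The strains did not overlap, and the 3 NZO males, at 139, 195 and 98.1 CPM, lay below the 4 NZO females. The log2 difference was -2.25 (SE 0.28, edgeR adjusted p = 4.19e-06). Ucn3 (chromosome 13, 3940688 to 3945349), the peptide urocortin 3 and a marker of beta cell maturity, was at 26.9 to 249 CPM (median 163) in the NZO libraries and 369 to 599 CPM (median 477) in the CAST libraries, again without overlap, with a log2 difference of -1.93 (SE 0.31, edgeR adjusted p = 7.08e-05). The zinc transporter of insulin granules, Slc30a8, was at 99.0 to 485 CPM (median 315) in the NZO libraries and 645 to 869 CPM (median 762) in the CAST libraries, a log2 difference of -1.58 (SE 0.23, edgeR adjusted p = 2.58e-05). All 8 CAST libraries were above every NZO library for both.

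The 2 largest decreases among the key islet genes were in a channel and a hormone receptor. Trpm5 (chromosome 7, 143069153 to 143094642), a cation channel opened by calcium, was at 7.67 to 70.9 CPM (median 45) in the NZO libraries and 215 to 336 CPM (median 233) in the CAST libraries, with a log2 difference of -3.13 (SE 0.35, edgeR adjusted p = 1.84e-06). Gipr, the receptor of the incretin GIP, was at 6.92 to 41.5 CPM (median 26.4) in the NZO libraries and 75.2 to 113 CPM (median 93.1) in the CAST libraries, with a log2 difference of -2.28 (SE 0.25, edgeR adjusted p = 1.91e-06). Neither gene overlapped between the strains, and in both the 3 NZO males were lowest. Glp1r, the receptor of the other incretin, was at 24.3 to 183 CPM (median 126) in the NZO libraries and 82.2 to 127 CPM (median 99.5) in the CAST libraries and did not pass over both sexes, at -0.25 (SE 0.24, edgeR adjusted p = 0.377). Among transcription factors, Nkx6-1 was at 58.4 to 304 CPM (median 237) in the NZO libraries and 335 to 511 CPM (median 422) in the CAST libraries and Isl1 at 19.3 to 49.3 CPM (median 36.7) in the NZO libraries and 85.5 to 122 CPM (median 101) in the CAST libraries, both without overlap. Their log2 differences were -1.23 (SE 0.24, edgeR adjusted p = 0.000382) and -1.52 (SE 0.13, edgeR adjusted p = 5.47e-08). Pdx1, the master regulator of the insulin gene, fell by less, from 245 to 174 CPM in the medians, and overlapped between the strains (-0.84, SE 0.20, edgeR adjusted p = 0.00172). Mafa, which activates insulin transcription in mature beta cells, overlapped fully and did not pass (-0.27, SE 0.28, edgeR adjusted p = 0.399), but passed at -0.49 with the code series of the libraries, the first digits of their sample codes, as a factor (edgeR adjusted p = 0.0457).

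**Figure D3:**
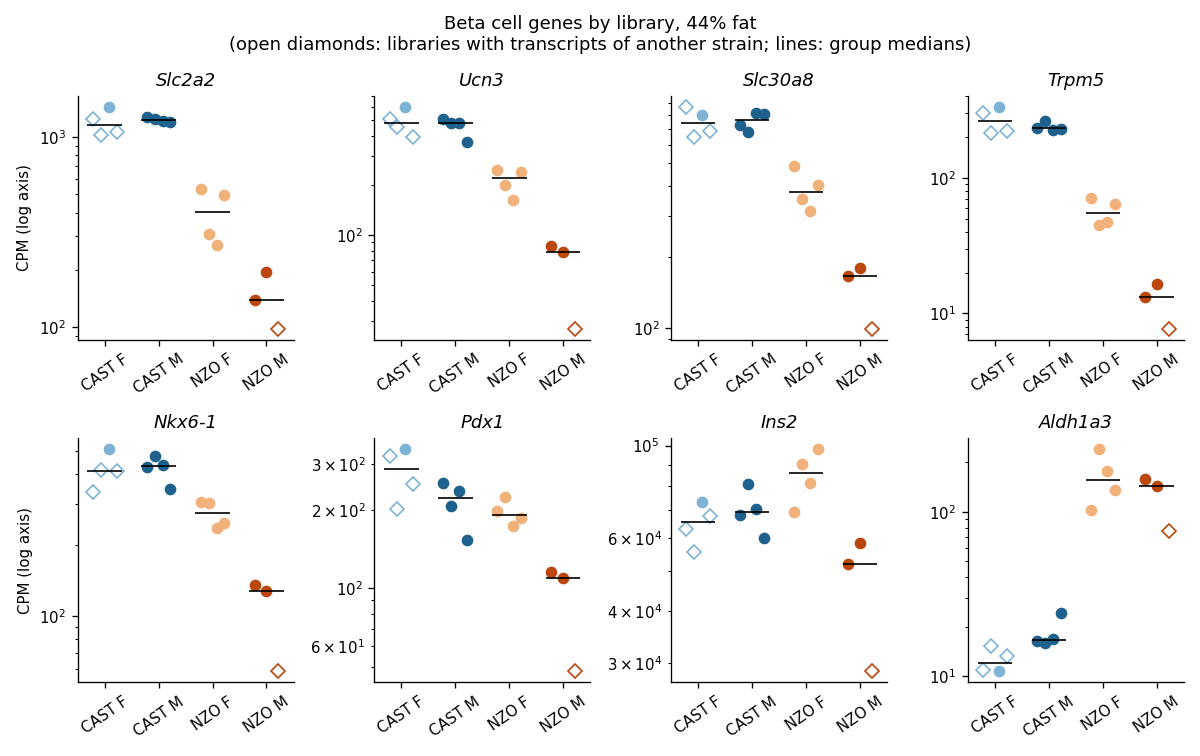
Level of 8 beta cell genes in each library on 44% fat, in TMM-scaled CPM on a log axis. Points are libraries grouped by strain and sex, open diamonds are the 4 libraries with transcripts of another strain, and lines are group medians; Slc2a2, Ucn3, Slc30a8, Trpm5 and Nkx6-1 are lower in every NZO library than in any CAST library, and Aldh1a3 is higher.

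The strain difference in insulin RNA had opposite signs in the sexes, and its call depended on a few libraries. Ins2 was at 69250 to 98030 CPM in the 4 NZO females, at 51852, 58264 and 28602 CPM in the 3 NZO males and at 55353 to 80846 CPM in CAST. The NZO males were the lowest group, and NZO females were at or above most CAST libraries. The log2 difference was 0.39 in females and -0.59 in males (edgeR adjusted p = 0.11 and 0.0277), and -0.06 (SE 0.20, edgeR adjusted p = 0.814) over both sexes. Ins1 followed the same order, with 0.28 in females and -0.78 in males (edgeR adjusted p = 0.3 and 0.0125). The strain-by-sex interaction of Ins2 passed with all libraries (edgeR adjusted p = 0.0393) but not without the 4 libraries (0.571) or without NZO male replicate 3 (0.0626). That of Ins1 did the same, with edgeR adjusted p-values of 0.0457, 0.565 and 0.0577. G6pc2, the islet glucose-6-phosphatase, was higher in NZO females and lower in NZO males, at 0.65 in females and -0.69 in males (edgeR adjusted p = 0.0147 and 0.0159). Iapp, the amyloid peptide secreted with insulin, was higher in NZO, with a median of 20656 CPM against 13123 CPM in CAST (0.63, SE 0.15, edgeR adjusted p = 0.00155). In males alone 24 of the 30 beta cell identity genes were lower and 1 higher (background 30.2% lower and 32.3% higher), and in females 14 were lower and 4 higher (28.0% and 28.5%).

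The machinery downstream of glucose moved in both directions. Of 21 genes for KATP, calcium and other channels, 13 were lower and 5 higher (median -0.67), against 35.1% higher and 33.4% lower over all genes. Kcnj11, the pore of the KATP channel, was at 11.4 to 45.3 CPM (median 35.2) in the NZO libraries and 41.7 to 53.3 CPM (median 46.7) in the CAST libraries (-0.71, SE 0.18, edgeR adjusted p = 0.00272), and its partner Abcc8 did not pass (-0.21, SE 0.13, edgeR adjusted p = 0.152). Abcc8 passed with library totals alone as the scale (-0.39, edgeR adjusted p = 0.0263) and with all 45 libraries in 1 model (-0.24, 0.0139). The calcium channel Cacna1a was lower (-1.30, SE 0.11, edgeR adjusted p = 1.01e-07), while the potassium channel Kcnk16 and the chloride channel Ano1 were higher, by 2.29 (SE 0.17) and 2.29 (SE 0.17) on the log2 scale. Of 26 insulin granule and exocytosis genes, 9 were higher and 10 lower (median -0.02), close to the background. Within that list the granule protein chromogranin B, Chgb, was at 2599 to 7034 CPM (median 5779) in the NZO libraries and 757 to 1356 CPM (median 981) in the CAST libraries without overlap (2.34, SE 0.19, edgeR adjusted p = 4.14e-08), and Vgf, a granule peptide precursor, was also higher (2.04, SE 0.25, edgeR adjusted p = 4.1e-06). Secretogranin II, Scg2, was lower in every NZO library (-1.22, SE 0.16, edgeR adjusted p = 5.97e-06). Pcsk1, the first prohormone convertase, was higher by 0.50 (SE 0.18) on the log2 scale, a call lost without the 4 libraries (edgeR adjusted p = 0.0246 with them and 0.0626 without). Of 21 islet receptor genes 10 were lower and 5 higher (median -0.45), with the glucagon receptor Gcgr lower (-1.25, SE 0.12, edgeR adjusted p = 2.85e-07) and the leptin receptor Lepr higher (1.27, SE 0.19, edgeR adjusted p = 3.26e-05).

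Genes that mature beta cells normally keep low were higher in NZO. Aldh1a3 (chromosome 7, 66390890 to 66427517), a retinaldehyde dehydrogenase used as a marker of dedifferentiated beta cells, was at 76.6 to 240 CPM (median 144) in the NZO libraries and 10.7 to 24.1 CPM (median 15.5) in the CAST libraries. No NZO library came near a CAST library, and the log2 difference was 3.29 (SE 0.24, edgeR adjusted p = 2.33e-08), 3.71 in females and 2.79 in males. Of 12 dedifferentiation and ectopic hormone genes 7 were higher and 1 lower (median 1.51). Cck, the peptide cholecystokinin, was at 94.7, 78.7 and 94.1 CPM in the 3 NZO males, at 2.05 to 19.5 CPM in NZO females and at 0.0767 to 0.5 CPM in CAST. Gast, the related hormone gastrin of the fetal pancreas, was at 8.84, 4.96 and 3.65 CPM in NZO males, at 0.250 to 2.16 CPM in NZO females and at 0 to 0.0763 CPM in CAST. In both, the order was NZO males, then NZO females, then CAST, with no overlap between the 3. Of 22 genes normally repressed in beta cells 16 were higher and none lower (median 1.13): the neuronal gene silencer Rest by 1.71 (SE 0.22), the ornithine aminotransferase Oat by 1.06 (SE 0.15) and the transglutaminase Tgm2 by 1.96 (SE 0.30) on the log2 scale. Because that list holds genes that other cells of the islet express freely, the stromal and macrophage values below move with it, and their part in it was not tested. Serpina7, a thyroxine-binding serpin, and Gc, the vitamin D binding protein, were higher in both sexes, with log2 differences over both sexes of 2.14 (SE 0.14) and 2.38 (SE 0.20).

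The other hormone cells also differed. Of 12 alpha cell genes 8 were lower and 3 higher (median -0.90), and for 8 every NZO library was below every CAST library (background 17.5%). Gcg, the glucagon precursor, was at 9541 to 16455 CPM (median 11945) in the NZO libraries and 20435 to 30719 CPM (median 24821) in the CAST libraries, with a log2 difference of -0.97 (SE 0.15, edgeR adjusted p = 2.98e-05). The alpha cell transcription factor Pou3f4 was lower too, at -3.31 (SE 0.22) on the log2 scale, with 0.234 to 0.840 CPM in NZO against 3.98 to 7.31 CPM in CAST. Somatostatin, Sst, was lower in NZO (-0.45, SE 0.10, edgeR adjusted p = 0.00115), while Ppy and Pyy did not pass (0.41 (SE 0.46, edgeR adjusted p = 0.434) and 0.27 (SE 0.27, edgeR adjusted p = 0.391)). With the code series as a factor both were higher in NZO, at 0.93 and 0.53 (edgeR adjusted p = 0.0316 and 0.0358). Ghrelin, Ghrl, the hormone of epsilon cells, was nearly missing from NZO, with 0.0110 to 0.220 CPM against 2.65 to 17.3 CPM in CAST (-6.46, SE 0.50, edgeR adjusted p = 3.93e-08). The ghrelin difference was as large in the islets of mice on 10% fat, at -6.66 (SE 0.62).

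Interferon response genes were higher in NZO almost as a whole: 34 of 37 tested were higher and 1 lower, with a median log2 difference of 2.61. For 26 of them every NZO library was above every CAST library (background 15.8%). Interferons bind receptors on the cell surface, which activate a transcription factor complex that binds an interferon-stimulated response element in the promoters of its targets. To show the shared sequence, the promoters of 3 of these genes are given from RefSeq (GRCm38.p6), 250 bases before to 50 after the start, 5′ to 3′ on the gene's strand, with each match to the core of that element, 2 copies of GAAA with any 2 bases between them, on either strand in capitals; overlapping matches run together. Ifih1 encodes a sensor of double-stranded viral RNA (chr2:62646206-62646505, minus strand), Isg15 a ubiquitin-like modifier (chr4:156200769-156201068, minus strand) and Ifit3 an antiviral RNA-binding protein (chr19:34583279-34583578, plus strand), and the last 2 were chosen after their values were seen.
Ifih1: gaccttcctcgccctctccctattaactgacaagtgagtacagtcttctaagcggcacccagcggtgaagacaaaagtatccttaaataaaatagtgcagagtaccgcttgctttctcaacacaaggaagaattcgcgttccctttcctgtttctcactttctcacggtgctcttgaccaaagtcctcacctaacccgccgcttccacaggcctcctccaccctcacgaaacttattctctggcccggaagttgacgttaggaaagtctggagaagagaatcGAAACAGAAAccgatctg
Isg15: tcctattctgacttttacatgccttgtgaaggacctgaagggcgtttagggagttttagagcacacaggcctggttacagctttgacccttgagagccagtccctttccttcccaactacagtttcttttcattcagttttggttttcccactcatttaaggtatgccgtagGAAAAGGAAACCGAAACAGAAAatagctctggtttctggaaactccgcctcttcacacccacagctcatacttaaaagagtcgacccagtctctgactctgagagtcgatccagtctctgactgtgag
Ifit3: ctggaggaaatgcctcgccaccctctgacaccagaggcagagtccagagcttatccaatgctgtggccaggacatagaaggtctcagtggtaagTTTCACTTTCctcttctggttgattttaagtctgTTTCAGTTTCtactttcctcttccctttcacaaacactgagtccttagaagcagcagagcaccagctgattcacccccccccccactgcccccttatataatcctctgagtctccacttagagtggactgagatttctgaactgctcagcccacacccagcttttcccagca
In all, 26 of the 38 listed genes matched a promoter in the RefSeq table, and 17 of these 26 (65.4%) held the motif or its reverse, 2 copies of TTTC with any 2 bases between them, against 3.99% of 27025 genes with a promoter. This is a description of reference promoters, which are of neither strain.

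The 3 genes shown above were at clearly separate levels. Ifih1 was at 19.1 to 48.2 CPM (median 37.4) in the NZO libraries and 3.60 to 8.51 CPM (median 4.94) in the CAST libraries, a log2 difference of 2.77 (SE 0.23, edgeR adjusted p = 8.78e-08). Isg15 was at 1.12 to 11.3 CPM (median 3.44) in the NZO libraries and 0.121 to 0.368 CPM (median 0.255) in the CAST libraries and Ifit3 at 1.49 to 33.8 CPM (median 8.45) in the NZO libraries and 0.368 to 0.872 CPM (median 0.633) in the CAST libraries, with log2 differences of 4.18 (SE 0.44) and 4.07 (SE 0.49). The highest value of CAST stayed below the lowest of NZO for each of them. Ifi27, a mitochondrial interferon target, was at 40.6 to 85.7 CPM in NZO and 12.3 to 18 CPM in CAST, with the tightest estimate of the 4 (2.06, SE 0.13, edgeR adjusted p = 2.43e-09). The neighbouring antiviral GTPases Mx1 and Mx2 went opposite ways. Mx1 (chromosome 16, 97447035 to 97462907) was at 15.2 to 77.8 CPM (median 46.7) in the NZO libraries and 0.307 to 1.55 CPM (median 0.516) in the CAST libraries, with NZO female replicate 1 highest at 77.8 CPM (5.75, SE 0.50, edgeR adjusted p = 1.84e-07). Mx2 (chromosome 16, 97535308 to 97560900) was at 0.126 to 0.778 CPM (median 0.384) in the NZO libraries and 2.35 to 4.88 CPM (median 3.48) in the CAST libraries and was the 1 list member that was lower (-3.03, SE 0.30, edgeR adjusted p = 3.28e-07). Both kept their direction on 10% fat, at 6.11 and -4.54, and whether reads of these similar genes were split evenly was not tested.

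**Figure D4:**
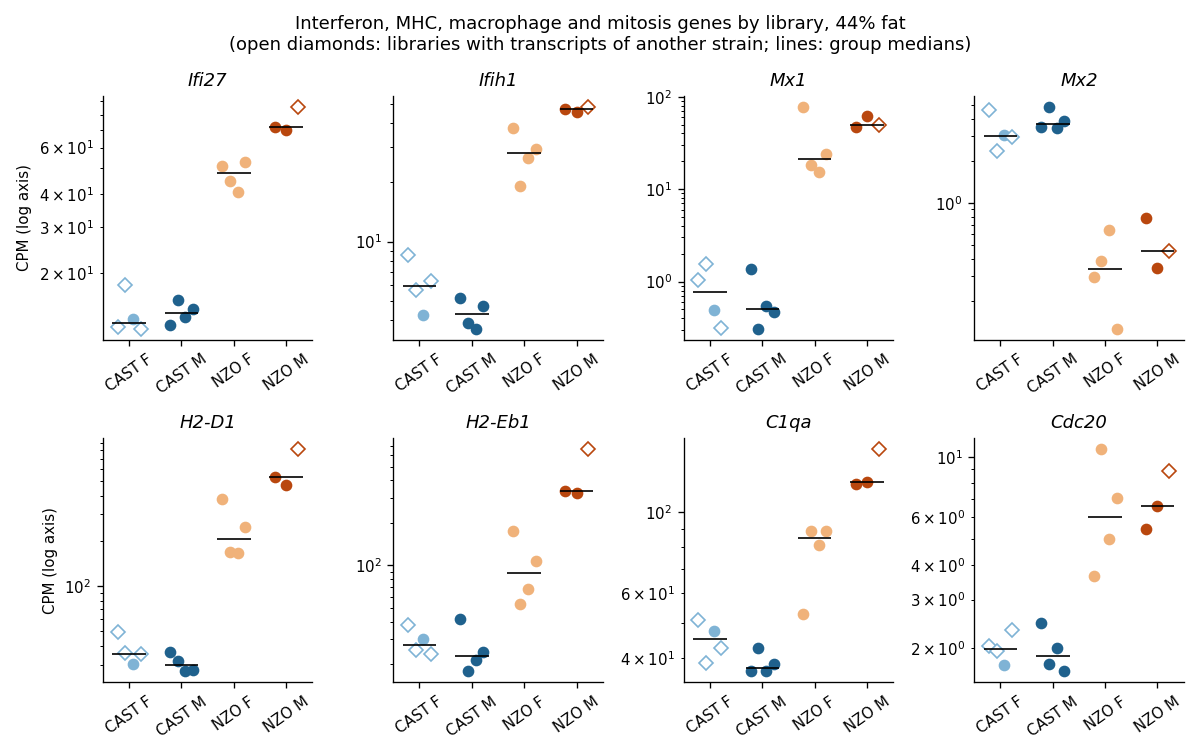
Level of interferon targets (Ifi27, Ifih1, Mx1, Mx2), MHC genes (H2-D1, H2-Eb1), the macrophage gene C1qa and the mitotic gene Cdc20 in each library on 44% fat, in TMM-scaled CPM on a log axis. Points are libraries, open diamonds the 4 libraries with transcripts of another strain and lines group medians; every NZO library is above every CAST library for all genes but Mx2, where the order is reversed.

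Antigen presentation genes were higher as well. Of 16 genes of MHC class I and peptide loading, 15 were higher and none lower (median 2.29), and of 12 class II genes all 12 were higher (median 2.56), 11 of them without the 4 libraries. H2-D1, a class I heavy chain, was at 166 to 813 CPM (median 378) in the NZO libraries and 27.1 to 49.2 CPM (median 33.5) in the CAST libraries (3.44, SE 0.30, edgeR adjusted p = 1.8e-07). H2-Eb1, a class II chain of professional antigen-presenting cells, was at 324 to 663 CPM in NZO males, 53.3 to 176 CPM in NZO females and 17.8 to 41.7 CPM in CAST (2.87, SE 0.43, edgeR adjusted p = 4.18e-05). MHC genes differ in sequence between strains and have close relatives, so their differences are uncertain as levels. Other genes of presentation moved with them: the immunoproteasome subunit Psmb10 by 1.88 (SE 0.22), the class II loading factor H2-DMa by 2.07 (SE 0.31) and the protease Ctss by 2.38 (SE 0.38) on the log2 scale. H2-M3, which presents formylated peptides, had a smaller and tighter difference, 1.26 (SE 0.09, edgeR adjusted p = 8.97e-09). One class I gene went the other way: H2-Q2 was at 0.0252 to 0.977 CPM in NZO and 41.1 to 54.6 CPM in CAST, and DESeq2 gave it no adjusted p.

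Macrophage genes were higher in NZO, most of all in males. Of 22 markers 21 were higher and none lower (median 2.20), and 21 also without the 4 libraries. The summed level of the markers was 254 to 1640 CPM in NZO and 116 to 205 CPM in CAST, with no overlap; the 3 NZO males were at 920 CPM or more and the 4 NZO females at 421 CPM or less. The complement component C1qa, made by tissue macrophages, was at 52.6 to 148 CPM (median 88.8) in the NZO libraries and 36.8 to 50.7 CPM (median 40.8) in the CAST libraries (1.23, SE 0.16, edgeR adjusted p = 6.98e-06). Itgax, the integrin CD11c of dendritic cells and activated macrophages, was at 7.63 to 37.2 CPM (median 15) in the NZO libraries and 1.4 to 4.38 CPM (median 2.19) in the CAST libraries (2.76, SE 0.34, edgeR adjusted p = 5.06e-06), and Adgre1, the macrophage antigen F4/80, differed by 3.15 (SE 0.44) on the log2 scale. In males all 22 markers were higher (median 3.40) and in females 16 (median 1.10), against 32.3% and 28.5% of all genes. Of 20 lymphocyte and plasma cell markers 15 were higher, but 6 were without the 4 libraries. CD45, Ptprc, the antigen of all leukocytes, overlapped between the strains (2.19, SE 0.51, edgeR adjusted p = 0.00171). Complement genes were higher in 14 of 18 cases and lower in 1 (median 1.96), among them the classical protease C1s1 by 3.21 (SE 0.30) and C4b by 2.91 (SE 0.31). Cd59a, which blocks the membrane attack complex, was at 38.4 to 51.3 CPM (median 47.0) in the NZO libraries and 9.50 to 11.7 CPM (median 10.6) in the CAST libraries, with an unusually narrow spread in each strain (2.09, SE 0.07, edgeR adjusted p = 7.64e-12). Of 17 inflammation and acute phase genes 12 were higher and none lower (median 1.63), with the iron-binding Lcn2 at 9.44 to 117 CPM (median 24.9) in the NZO libraries and 0.367 to 1.89 CPM (median 0.676) in the CAST libraries and the chemokine Cxcl10 at 0.543 to 17.7 CPM (median 9.06) in the NZO libraries and 0.144 to 0.414 CPM (median 0.256) in the CAST libraries. Since macrophages express MHC class II, complement and interferon targets themselves, the macrophage markers move with those lists, and their part in them was not tested.

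Stromal, vascular and duct genes were higher in NZO. All 22 fibroblast, stellate and mural genes were higher (median 1.63), with and without the 4 libraries. The pericyte gene Rgs5, a regulator of G-protein signalling, had the clearest difference, with 427 to 770 CPM (median 653) in the NZO libraries and 60.8 to 84.3 CPM (median 68.7) in the CAST libraries (3.21, SE 0.10, edgeR adjusted p = 2.54e-12). Its difference was 3.22 in females and 3.21 in males. Fibronectin, Fn1, was at 38.5 to 144 CPM (median 110) in the NZO libraries and 5.39 to 12.9 CPM (median 9.40) in the CAST libraries (3.41, SE 0.26, edgeR adjusted p = 4.56e-08), and the PDGF receptor Pdgfrb differed by 1.75 (SE 0.14). Of 18 endothelial genes 15 were higher and 1 lower (median 0.75): the cadherin Cdh5 by 1.20 (SE 0.11), Pecam1 by 1.03 (SE 0.11) and Emcn by 0.72 (SE 0.06). Of 16 duct genes 12 were higher and none lower (median 1.33), with keratin 18, Krt18, at 132 to 263 CPM (median 206) in the NZO libraries and 36.8 to 65.0 CPM (median 59.9) in the CAST libraries and the chloride channel Cftr at 1.44 to 11.4 CPM (median 3.97) in the NZO libraries and 0.0355 to 0.299 CPM (median 0.0864) in the CAST libraries. Acinar genes were called less often, although their share of counts had a median of 10.2% in NZO and 2.48% in CAST, with overlap. Of 32 genes 7 were called higher and 1 lower, below the background of 35.1%. Values spread over more than 2 orders of magnitude among CAST libraries. The acinar count became 13 higher without CAST female replicate 2, 20 higher without CAST male replicate 2 and 3 higher without the 4 libraries. The transcription factor of acinar secretion Bhlha15 was higher (1.62, SE 0.34, edgeR adjusted p = 0.000763). With the acinar level of each library as a covariate, 20 of 22 fibroblast, 19 of 22 macrophage and 8 of 16 duct genes were called higher (background 29.5% higher and 29.1% lower).

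The amylase genes pointed in opposite directions, and single members are uncertain. Amy2a3 was at 11782 to 32536 CPM in NZO and 0.0769 to 39.4 CPM in CAST, and Amy2a4 at 3328 to 8683 and 0.153 to 38.8 CPM. Amy2b was at 125 to 344 CPM in NZO and 203 to 48004 CPM in CAST. These are near-identical copies whose number varies between strains, so the counting could have given the reads of a strain to different copies. Of them only Amy2b was on the acinar list, so the acinar shares and the acinar covariate carry this uncertainty. In the Reg family of secreted lectins, Reg3g was at 6.65 to 80.5 CPM (median 27.2) in the NZO libraries and 0 to 1.89 CPM (median 0.0946) in the CAST libraries and Reg2 at 13 to 82.2 CPM (median 37.3) in the NZO libraries and 8.16 to 2412 CPM (median 272) in the CAST libraries, the second losing its call without the 4 libraries (edgeR adjusted p = 0.0605).

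Cell cycle genes were higher in NZO in both sexes. Of 32 genes 29 were higher and none lower (median 1.17), 28 within females and 28 within males, and 28 without the 4 libraries. For 23 of them the strains did not overlap (background 15.8%). Rrm2, which makes deoxynucleotides for replication, was at 10.5 to 17.4 CPM (median 11.7) in the NZO libraries and 3.85 to 4.67 CPM (median 4.15) in the CAST libraries (1.60, SE 0.11, edgeR adjusted p = 8.11e-09). Cdc20, the activator of the anaphase-promoting complex, was at 3.66 to 10.7 CPM (median 6.60) in the NZO libraries and 1.64 to 2.47 CPM (median 1.97) in the CAST libraries (1.77, SE 0.20, edgeR adjusted p = 1.49e-06). The replicative helicase subunit Mcm6 and cyclin A2, Ccna2, differed by 1.30 (SE 0.14) and 1.38 (SE 0.15) on the log2 scale. Of 13 cyclins and CDK inhibitors 4 were higher and 7 lower (median -0.28). Rb1, which holds cells before S phase, and Cdk4, a kinase that acts against it, were both lower, at -0.76 (SE 0.07) and -0.28 (SE 0.05), and the CDK inhibitor Cdkn1a was higher, at 0.98 (SE 0.19). Which cells of the islet carried these transcripts was not tested. Promoters of genes of mitosis often hold the cell cycle homology region, TTTGAA or its reverse TTCAAA, through which a complex with LIN54 represses them in resting cells. Of the 32 genes, 24 matched a RefSeq promoter and 11 of these (45.8%) held it, against 20.2% of all genes with a promoter. The 2 below, Cdc20 (chr4:118437294-118437593, minus strand) and Cdk1, the mitotic kinase (chr10:69352863-69353162, minus strand), show it close to the start, in capitals.
Cdc20: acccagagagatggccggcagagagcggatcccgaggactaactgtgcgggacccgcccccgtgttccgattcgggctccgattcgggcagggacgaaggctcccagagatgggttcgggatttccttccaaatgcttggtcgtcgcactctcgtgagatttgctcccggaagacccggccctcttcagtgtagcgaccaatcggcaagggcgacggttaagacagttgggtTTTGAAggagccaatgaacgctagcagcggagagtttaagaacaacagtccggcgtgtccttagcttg
Cdk1: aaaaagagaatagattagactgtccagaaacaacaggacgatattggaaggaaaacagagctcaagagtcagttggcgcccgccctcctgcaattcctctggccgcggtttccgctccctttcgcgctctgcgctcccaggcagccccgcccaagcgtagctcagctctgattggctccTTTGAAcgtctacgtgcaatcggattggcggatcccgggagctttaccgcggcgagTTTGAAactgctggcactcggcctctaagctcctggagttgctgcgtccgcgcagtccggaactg
Cdk1, shown for its motif after its values were seen, was at 3.74 to 9.11 CPM (median 5.29) in the NZO libraries and 1.76 to 3.06 CPM (median 2.30) in the CAST libraries (1.37, SE 0.20, edgeR adjusted p = 1.75e-05).

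Genes of protein folding in the endoplasmic reticulum were mostly higher in NZO. Of 30 genes of the unfolded protein response 23 were higher and 1 lower (median 0.89). In females 27 were higher and none lower, against 28.5% and 28.0% of all genes, and in males 12 were higher and 3 lower, against 32.3% and 30.2%, so the male count was near the background for higher genes. Dnajc3, an inhibitor of the kinase PERK, was at 545 to 1323 CPM (median 757) in the NZO libraries and 311 to 486 CPM (median 343) in the CAST libraries (1.20, SE 0.16, edgeR adjusted p = 8.93e-06), and the protein disulfide isomerase P4hb differed by 0.96 (SE 0.14). Derl3, which helps export misfolded proteins for degradation, was at 44.8 to 101 CPM in NZO females, 45.9, 59.4 and 38.3 CPM in NZO males and 16.9 to 34.9 CPM in CAST (1.42, SE 0.21, edgeR adjusted p = 2.42e-05). With the acinar level as a covariate 23 of the 30 were called higher and 1 lower. The part of acinar cells, which are rich in these transcripts, was not tested. In the ATF4 and CHOP branch 13 of 19 were higher and 2 lower. Without the 4 libraries 8 were higher and 2 lower, nearer to the shares over all genes there, 30.6% higher and 28.1% lower. With all libraries the serine synthesis enzymes Phgdh and Psat1 were at 2.71 (SE 0.41) and 1.08 (SE 0.14).

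Mitochondrially encoded genes were mostly called lower in NZO, and nuclear genes of oxidative phosphorylation were mostly called higher, by small amounts. Of 13 mitochondrially encoded genes 11 were lower and 1 higher (median -0.76). The complex I subunit mt-Nd2 was at 368 to 554 CPM (median 434) in the NZO libraries and 1402 to 2426 CPM (median 1849) in the CAST libraries (-2.07, SE 0.14, edgeR adjusted p = 7.87e-09), and mt-Atp6, of the ATP synthase, differed by -0.97 (SE 0.11). Of 32 nuclear genes of oxidative phosphorylation 23 were higher and 2 lower, though by little (median 0.26), and with library totals alone as the scale 11 were higher and 4 lower. Uqcrq, of complex III, was among the higher ones (0.79, SE 0.08, edgeR adjusted p = 5.09e-07). The mitochondrial genome of CAST differs in sequence from that of laboratory strains, and polyadenylated RNA captures these transcripts in part, so the mitochondrial values are uncertain as levels. Glycolysis genes were split, 7 of 19 higher and 6 lower, with the neuronal enolase Eno2 lower in every NZO library (-1.75, SE 0.10, edgeR adjusted p = 1.35e-09). Txnip, which binds thioredoxin and is induced by glucose, was at 224 to 1463 CPM (median 945) in the NZO libraries and 177 to 311 CPM (median 259) in the CAST libraries and overlapped through 1 NZO female (1.74, SE 0.25, edgeR adjusted p = 2.27e-05). Its relative Arrdc4 followed (1.96, SE 0.21, edgeR adjusted p = 1.09e-06), as did the glycerol phosphate dehydrogenase Gpd1 (1.36, SE 0.10, edgeR adjusted p = 1.71e-08). Cholesterol synthesis (7 of 25 higher, 7 lower) and fatty acid synthesis (6 of 19 higher, 7 lower) were near or below the background, with the desaturase Scd2 lower, at -1.43 (SE 0.11). Among 30 fatty acid oxidation genes and PPAR targets, 12 were higher and 4 lower, against 35.1% higher and 33.4% lower over all genes. This list too was near or below the background. Its members Etfdh and Ehhadh were higher (0.91 (SE 0.06) and 1.55 (SE 0.12)). The antioxidant enzymes Prdx1 and Gpx1 were higher (0.99 (SE 0.06) and 0.89 (SE 0.09)) in a list with 10 of 24 higher and 3 lower, also near or below the background.

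Smaller lists are read against the shares over all genes, 35.1% higher and 33.4% lower. Of 25 imprinted genes 15 were lower and 3 higher (median -0.64). Neuronatin, Nnat, a membrane protein that aids insulin processing, was at 3.56 to 8.48 CPM (median 5.04) in the NZO libraries and 89.6 to 277 CPM (median 131) in the CAST libraries (-4.82, SE 0.27, edgeR adjusted p = 1.73e-09). Magel2 and Ndn, neighbours in the Prader-Willi region, were lower, Magel2 with 0.0126 to 0.172 CPM against 3.88 to 9.45 CPM and Ndn by -1.33 (SE 0.08). Peg10, derived from a retrotransposon, was at 4.78 to 23.3 CPM (median 10.9) in the NZO libraries and 49.1 to 132 CPM (median 73.3) in the CAST libraries (-2.79, SE 0.18, edgeR adjusted p = 3.9e-09). Of 13 genes of serotonin and prolactin receptor signalling 7 were lower and 1 higher (median -0.59), with the serotonin receptor Htr1d at 0.0503 to 0.261 CPM in NZO and 0.838 to 2.35 CPM in CAST. The prolactin receptor Prlr did not pass over both sexes (-0.59, SE 0.28, edgeR adjusted p = 0.076) and fell by 1.52 on the log2 scale in males (edgeR adjusted p = 9.38e-05). Over both sexes it passed in DESeq2 (adjusted p = 0.0319), and in edgeR with library totals alone (0.028), with all 45 libraries in 1 model (0.000574) and without CAST female replicates 1 (0.0403) or 3 (0.0444) or NZO female replicate 1 (0.0282). Insulin and IGF signalling, with 9 of 22 higher and 10 lower, was near those shares: the insulin receptor substrate Irs1 was lower (-1.76, SE 0.12, edgeR adjusted p = 5.21e-09) and the IGF binding protein Igfbp5 higher (2.43, SE 0.17, edgeR adjusted p = 1.35e-08). Clock genes were lower in 8 of 19 cases, also near the share over all genes, and higher in 3, with Nr1d2 and Rora lower, at -1.43 (SE 0.22) and -0.68 (SE 0.06). The labels used here give no hour of collection. Nnt, deleted in part in C57BL/6J, did not pass (-0.23, SE 0.14, edgeR adjusted p = 0.161), but passed with library totals alone (-0.39, edgeR adjusted p = 0.0247) and with all 45 libraries in 1 model (-0.26, 0.0226).

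A number of genes were read in 1 strain and scarcely in the other. The definition was at least 1 CPM in each library of a strain and under 0.1 CPM in each of the other. Over the 11 libraries left without the 4 libraries with transcripts of another strain, 40 genes were detected in NZO alone and 25 in CAST alone. Of these, 22 and 17 were predicted gene models. The counts depended on the limits: 5 and 17 over all 15 libraries, and 130 and 91 with 0.5 CPM as the upper limit. Values of single genes below are over all 15 libraries unless stated. The interferon-inducible GTPase Tgtp2 was at a median of 37.1 CPM in NZO and of 0.0347 CPM in CAST. In the 6 NZO libraries of the definition its median was 24.7 CPM. In the other direction the inflammasome sensor Nlrp1a was at 1.66 to 2.85 CPM in CAST and 0 to 0.0138 CPM in NZO, and the interferon-inducible Mndal at 3.06 to 4.95 and 0 to 0.179 CPM. Gbp10, another interferon-inducible GTPase, was outside this definition, with medians of 12.9 CPM in NZO and 0 CPM in CAST, as was Prkg2, a cGMP-dependent kinase, with 57.7 to 80.3 CPM in CAST and 0.181 to 1.90 CPM in NZO. NZO male replicate 3, a library with transcripts of another strain, held the highest NZO values of Mndal, Prkg2, Zfp607 and H2-Q2. Among the largest differences of all, the casein Csn3 was at 0.465 to 19 CPM in NZO and 0 CPM in all CAST libraries, and the organic anion transporter Slc22a29 at 4.75 to 8.19 and 0 to 0.0197 CPM. The tetraspanin Tspan10 and Lrrc38, an accessory subunit of BK potassium channels, were at 0.106 to 11.1 and 7.15 to 14.7 CPM in CAST and at 0 to 0.0906 and 0.0113 to 0.234 CPM in NZO. Whether such a gene is missing, silent or unmapped in a strain cannot be told apart.

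The strain difference was larger in males for many islet and immune genes. The strain-by-sex interaction passed for 2765 genes: for 1593 (8.35%) the log2 difference was higher in males and for 1172 (6.14%) lower. It passed for 16 of 30 beta cell identity genes, all 16 lower in males, for 20 of 22 macrophage genes, all 20 higher in males, and for 12 of 30 unfolded protein response genes, all lower in males. Only 1 of 32 cell cycle genes had it. With library totals alone as the scale, the interaction passed for 734 genes higher in males and 116 lower. The list counts of the interaction were not taken on that scale, so how far the downward ones depend on it was not tested. Slc2a2 differed by -1.57 in females and -3.08 in males (interaction -1.52, edgeR adjusted p = 0.0135), and Trpm5 by -2.25 in females and -4.25 in males (interaction -2.0, edgeR adjusted p = 0.00656). Sorcs2, a neurotrophin sorting receptor, had the smallest p of these, with 0.08 in females and 2.32 in males (interaction 2.24, edgeR adjusted p = 0.000146). In the other direction Cox6a2, a muscle-type subunit of cytochrome oxidase, differed by -1.56 in females and -3.48 in males and the ganglioside synthase St8sia1 by -1.78 in females and -3.80 in males. Leaving out 1 library moved their number by over 1.5 times in 6 cases: 1819 without NZO female replicate 2, 1751 and 1447 without CAST female replicates 2 and 4, 1655 and 1160 without CAST male replicates 2 and 3, and 833 without NZO male replicate 3. Without the last, Slc2a2 and Trpm5 kept theirs (edgeR adjusted p = 0.0352 and 0.00652), while Ins2 lost its call (0.0393 with it and 0.0626 without). Without the 4 libraries, which leaves 1 CAST female, edgeR called 0 genes, with 2067 of 19975 (10.3%) at an unadjusted p under 0.05 and no other tool run; the interaction estimates were -1.04 for Slc2a2, -1.44 for Trpm5 and 2.08 for Sorcs2. The male libraries of NZO also held more acinar counts (10.2% to 21.3%, against 4.08% to 10.5% in NZO females) and fewer insulin counts, whose part in the interaction was not tested. By the first digits of their sample codes, both NZO libraries of series 80 were male and both of series 89 female, so sex and code series cannot be fully told apart in NZO.

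The same strains were also compared on 10% fat, with 14 libraries. There 4574 of 18876 genes were higher in NZO (24.2%) and 4476 lower (23.7%). With library totals alone as the scale 3660 were higher and 2322 lower. Among the 18574 genes tested on both diets, 7423 were called in the same direction on both, 57.9% of the calls on 44% fat and 83.0% of those on 10% fat, and 75 in opposite directions. The 2 comparisons share no library, and across genes their log2 differences correlated with r = 0.852, as a description over genes that are not independent. The strain-by-diet interaction passed for 2202 of 19748 genes upward (11.2%) and 2079 downward (10.5%), and without the 4 libraries for 575 (2.78%) and 1188 (5.74%) of 20684.

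The list counts on 10% fat and of the diet interaction below were taken with TMM scaling only. With library totals alone as the scale, the interaction passed over all genes for 521 upward and 887 downward. In the TMM fits the strain difference in cell cycle genes differed between the diets. On 10% fat 4 of the 32 were higher in NZO and 4 lower (median -0.12), against 29 and none on 44% fat (median 1.17). The interaction passed for 28 of 32, all upward, and for 21 without the 4 libraries. Cdc20 differed by -0.04 on 10% fat and 1.77 on 44% fat (interaction, edgeR adjusted p = 0.00135, and 0.0209 without the 4 libraries). Macrophage markers had 4 higher and 1 lower on 10% fat (median 0.08), and the interaction passed for 21 of 22 upward, 16 without the 4 libraries. C1qa differed by -0.41 on 10% fat and 1.23 on 44% fat (interaction, edgeR adjusted p = 0.00043). MHC class II genes went from 2 of 12 higher to all 12, with the interaction passing for 12, 8 of them without the 4 libraries. Genes normally repressed in beta cells went from 2 higher and 3 lower to 16 higher and none lower, and the interaction passed for 19 of 22, but for 5 without the 4 libraries.

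Of the 30 beta cell identity genes 10 were lower and 6 higher in NZO on 10% fat (median -0.21), against 16 lower and 2 higher on 44% fat (median -0.75). The interaction passed for 17 of the 30, all downward, and for 15 without the 4 libraries. Slc2a2 differed by -1.18 on 10% fat and -2.25 on 44% fat, Trpm5 by -1.96 and -3.13, and Ucn3 by -0.72 and -1.93 (interactions, edgeR adjusted p = 0.00318, 0.00161 and 0.002). All 3 passed on 10% fat too (edgeR adjusted p = 3.94e-05, 1.08e-06 and 0.000476). Glp1r differed by 0.78 on 10% fat, which passed, and by -0.25 on 44% fat, which did not (interaction, edgeR adjusted p = 0.00406). Interferon genes were already higher on 10% fat, 31 of 37 (median 1.26), and the interaction passed for 25 upward, 17 without the 4 libraries. The unfolded protein response went from 14 of 30 higher to 23, yet its interaction passed for 1 gene, so a larger difference on 44% fat was not shown. Of 12 alpha cell genes 9 were lower on 10% fat (median -1.04) and 8 on 44% fat (median -0.90), with 1 interaction in each direction, and imprinted genes went from 12 of 25 lower to 15. Among genes with the smallest interaction p, the microglial and macrophage adaptor Tyrobp went from -0.25 on 10% fat to 1.81 on 44% fat and Dbi, the acyl-CoA binding protein, from 0.38 to 1.47. Downward, Zdhhc2, a palmitoyltransferase, went from -1.16 to -2.67, Jph3, a junctophilin, from -0.66 to -2.20, and Mreg, melanoregulin, from 2.99 to 0.72.

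**Figure D5:**
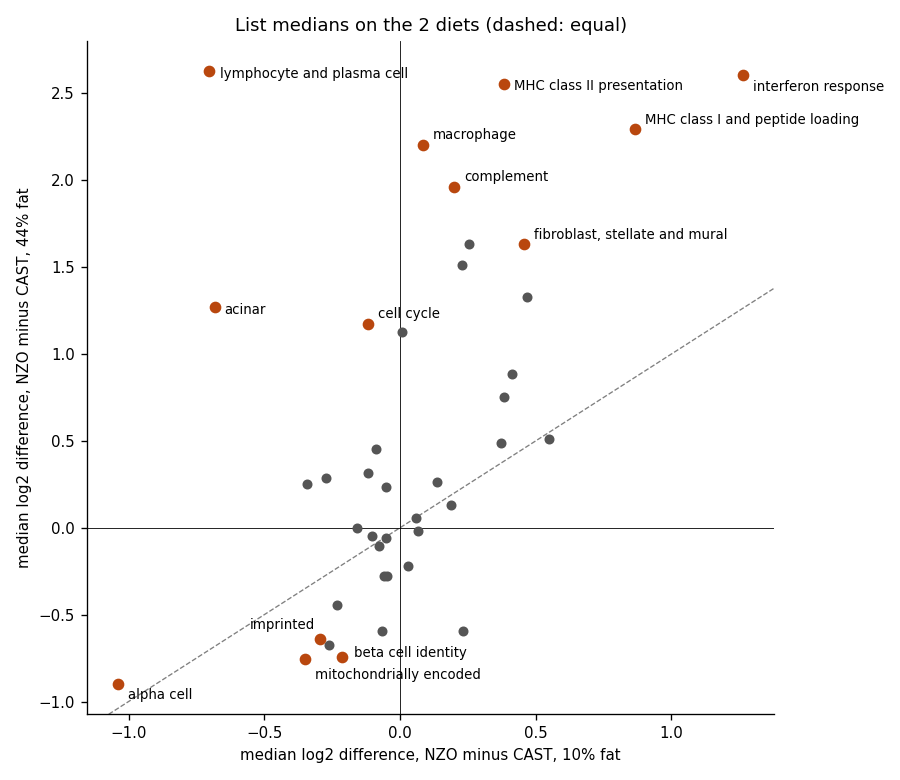
Median log2 difference (NZO minus CAST) of each gene list on 10% fat (x axis) and on 44% fat (y axis), for lists with 8 or more genes tested on 44% fat, each point a list. On the dashed line both are equal; the cell cycle list moves from -0.12 to 1.17 and the macrophage list from 0.08 to 2.20, while the alpha cell list lies near the line at -1.04 and -0.90.

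Libraries fall into 3 series by the first digits of their sample codes, 76, 80 and 89, whose meaning the labels do not state. Each series held both strains, with 3, 2 and 2 NZO and 2, 4 and 2 CAST libraries. The NZO libraries of series 80 were both male and those of series 89 both female, so values within series mix series and sex. Slc2a2 differed by -2.15, -3.13 and -1.62 and Aldh1a3 by 3.51, 2.82 and 3.07 on the log2 scale within them.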

How the data were processed

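Counts per gene in 45 islet libraries were deposited by the authors as estimated counts, of which 19.4% were not whole, with GRCm38 and DESeq2 named, without a role, in the submitters' processing notes. A second deposited table held the authors' variance-stabilised values, on a log2 scale judging from the values. Values were read with the aligner, the counting tool and its use of strand not given in the sources used here. The matrix held 22904 genes.

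Counts were rounded, genes of low count removed with edgeR's filterByExpr, and libraries scaled by TMM. NZO was tested against CAST with edgeR's quasi-likelihood test (edgeR 4.0.16, R 4.3.3) with sex as a term, and interactions with 1 mean per strain, sex and diet. Adjusted p-values are Benjamini-Hochberg over all genes tested, with 0.05 as the threshold. The standard error is the log2 fold divided by the root of F. CPM levels are TMM-scaled over all 45 libraries. Code was tested on simulated counts. Alternatives used other scaling factors, no filter, DESeq2 1.42.0, limma 3.58.1, other designs and fewer libraries.

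The comparison and its gene lists were chosen with earlier results of these data known. Named genes were the key islet genes whatever their test, up to 4 called genes of smallest p from every other list, and the 8 largest differences each way among genes called with and without the 4 libraries with transcripts of another strain, with no overlap between the strains and a mean of 5 CPM or more in the higher one. To these were added the 6 called genes of smallest p each way per interaction (mean of 5 CPM or more) and the 6 of highest median CPM detected in 1 strain. Gm and Rik gene models were left out of the largest differences and the genes of 1 strain. Some genes under this rule are not reported here. Shares of marker lists are given as values with no test, although an exact permutation test was planned. Of 802 listed genes 20 were not matched by symbol or Entrez ID.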

Additional observations from a re-analysis of the deposited data

Results flagged for a closer look

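Libraries that stood apart from the other 3 of their group were looked for among 35 genes and the marker shares, in 129 groups of 4, where chance flags about 1 in 20; 6 did. Mx1 was at 77.8 CPM in NZO female replicate 1, against 24.2 CPM in the nearest other NZO female. Rgs5 was lowest in the same library, at 427 CPM against 650 CPM. Aldh1a3 was at 24.1 CPM in CAST male replicate 4 against 16.8 CPM, Txnip at 177 CPM in CAST female replicate 1 against 258 CPM, and Nnat at 172 CPM in CAST male replicate 2 against 113 CPM. Lymphocyte and plasma cell genes took 0.0246% of the counts in CAST male replicate 1, against 0.00206% in the nearest other CAST male.

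Among the same 35 genes the strain difference (NZO minus CAST, log2) differed between the sexes for 17 in edgeR at an adjusted p of 0.05. Over all genes tested this interaction passed for 8.35% upward and 6.14% downward. The 35 genes were chosen and are no sample of all genes. The male difference minus the female one was below 0 for Ins1 -1.06, Ins2 -0.97, Slc2a2 -1.52, Ucn3 -1.65, Slc30a8 -1.39, Nkx6-1 -1.35, Gipr -1.52, Trpm5 -2.0 and Dnajc3 -0.79. It was above 0 for Cck 3.77, Gast 3.83, Ifih1 1.25, Ifi27 0.68, H2-D1 1.63, H2-Eb1 2.27, C1qa 0.95 and Itgax 1.78. None of these was called without the 4 libraries with transcripts of another strain.

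The strain difference also differed between the diets for 21 of the 35, in the fit with all libraries. Over all genes tested in that fit this interaction passed for 11.2% upward and 10.5% downward. Without the 4 libraries with transcripts of another strain, diet interactions over all genes fell from 2202 to 575 upward and from 2079 to 1188 downward. The values below are from the fit with all libraries. The difference on 44% fat minus that on 10% fat was below 0 for Slc2a2 -1.13, Ucn3 -1.30, Slc30a8 -1.02, Nkx6-1 -0.96, Gipr -1.09 and Trpm5 -1.23. It was above 0 for Cck 3.52, Gast 3.85, Txnip 1.17, Mx2 1.48, Ifi27 0.89, H2-D1 1.08, H2-Eb1 1.96, C1qa 1.56, Itgax 1.30, Fn1 1.21, Rgs5 0.42, Rrm2 1.02, Cdc20 1.81, Derl3 1.44 and Cd59a 0.38.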

How the results depend on the processing

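Over 25 alternatives, 3465 of 3474 fits of the 139 called genes followed across settings kept their call and direction and none changed direction. Many of these genes were picked for a small p or a large difference. Those of largest difference had to be called without the 4 libraries as well. Of the alternatives 15 left out a single library. The count therefore does not speak for all called genes. Calls lost were those of Pcsk1, Reg2 and Mreg without the 4 libraries with transcripts of another strain, Pcsk1 also with library totals alone, with the code series as a factor and without CAST female replicates 1 or 4, and Sorcs2 and Capg with the acinar level as a covariate. Of genes not called, Ins2 changed sign (0.02 without a sex term, and -0.14 to 0.11 without 1 library, above 0 without CAST male replicate 2 or NZO male replicate 3), as did Ppy, Pyy and Mafa with the acinar covariate (-0.05, -0.01 and 0.02) and G6pc2 (-0.12 with library totals, -0.02 with all 45 libraries in 1 model, -0.07 without the 4 libraries and -0.09 to 0.25 without 1 library, below 0 in 5 cases). Calls were gained by Ppy, Pyy and Mafa with the code series as a factor, by Abcc8, Prlr and Nnt with library totals alone, by these 3 and Scarf2 with all 45 libraries in 1 model, and by Prlr in DESeq2 and without CAST female replicates 1 or 3 or NZO female replicate 1. The cause was not tested.

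Leaving out each library in turn gave 12636 to 13194 called genes, 5706 to 6013 at 2-fold, 9745 to 11273 in females, 11047 to 12046 in males, 833 to 3155 for the sex interaction, 8303 to 9324 on 10% fat and 3024 to 5794 for the diet interaction. The sex interaction fell by over 1.5 times without NZO male replicate 3 (833), CAST male replicates 3 (1160) or 2 (1655), CAST female replicates 4 (1447) or 2 (1751), or NZO female replicate 2 (1819). Limma-trend on the deposited log2 values called 3153 at 2-fold. With library totals alone 5982 genes were called on 10% fat (3660 higher and 2322 lower). On that scale 850 were called for the sex interaction (734 upward and 116 downward) and 1408 for the diet interaction (521 upward and 887 downward). Without the 4 libraries 6200 were called in females, where the lone CAST female is assumed to vary like the other groups, 0 for the sex interaction in edgeR (2067 genes at an unadjusted p under 0.05; no other tool was run on it) and 1763 for the diet interaction. Genes detected in 1 strain became 130 for NZO and 91 for CAST with 0.5 CPM as the upper limit, and 5 for NZO over all 15 libraries. Of 1125 list counts under these alternatives 1110 stayed within 1.5 times. No paired analysis was possible because replicate numbers follow accession order and pair nothing.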
